A study of Mus musculus with 6 samples.

Results

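The receptors for interleukins 2, 4, 7, 9, 15 and 21 share the common gamma chain, Il2rg, and were examined through the genes of their chains. These are Il2ra, Il2rb, Il2rg, Il4ra, Il7r, Il9r, Il15ra and Il21r. Every probe set whose platform symbol is one of these 8 names was taken, which gave 13 of the 45037 probe sets that are not controls, for 7 of the 8 genes. The annotation used here names no probe set for Il2rg, so the shared chain is not reported. The 6 arrays carry RNA described as that of double negative thymocytes, the T cell precursors that lack CD4 and CD8, sorted by flow cytometry. The labels give 3 wild type mice and 3 mice in which both Egr1 and Egr3, a pair of zinc finger transcription factors, are knocked out, and number 1 animal for each array. The sources used here do not give the strain, age or sex of the mice or how the alleles were made, and some labels give the tissue as unsorted thymus. The comparison asks which receptor transcripts differ between the genotypes.

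Cytokine receptors of this family bind their ligand with a private chain and signal through the gamma chain, which carries the kinase JAK3, and a partner chain that carries JAK1. The kinases phosphorylate STAT proteins, mainly STAT5 for interleukins 2, 7, 9 and 15, STAT6 for interleukin 4 and STAT3 for interleukin 21. In the thymus, interleukin 7 keeps early precursors alive, and CD25, the product of Il2ra, marks the double negative stages at which the T cell receptor beta locus is rearranged. Its loss from the surface accompanies passage beyond that checkpoint.

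Values are the deposited intensities, and a log2 change is the double knockout mean less the wild type mean, by label, on log2 of intensity plus 16, which understates the change of dim probe sets. Changes were tested with limma, with p-values adjusted over all probe sets tested, or over genes where that is said, and a change is called at an adjusted p under 0.05. The labels were checked first. Egr1 intensity was 455 to 509 in the wild type group and 1221 to 1757 in the group labelled double knockout, so that it was higher where it should be disrupted (log2 change 1.60, SE 0.24, limma adjusted p = 0.00312 over all probe sets). The brighter Egr3 probe set gave -0.59 (SE 0.32, limma adjusted p = 0.367) and the dimmer -0.07 (SE 0.32, limma adjusted p = 0.941). Where these probe sets lie relative to the disrupted parts is not known here, so they check nothing, and every direction below is stated for arrays by their label. Cd4 read at most 6.08 on any array, under the brightest of 27 bacterial control probe sets, which read between 19.0 and 29.9 on the 6 arrays. The other coreceptor genes were above that control on every array, at 68.5 to 197 for the brightest Cd8a probe set and 65.9 to 137 for Cd8b1, with overlap between the groups for both. Of 10 double negative thymocyte markers named on the array none lay under that control on all arrays, and their summed intensity was 30296 to 44189 in the wild type group, against 21054 to 24738 in the others. Wild type replicate 3 stood apart: its 9 granulocyte markers summed to 361, against 11467 and 24834 on the other wild type arrays and 18476 to 27652 in the group labelled double knockout. Its 3 erythroid markers summed to 3818, against 411 and 29.9 on the other wild type arrays and 304 to 392 in the group labelled double knockout. Xist, transcribed in females, read at least 1439 on all 6 arrays, and the Y-linked Eif2s3y read 476 on wild type replicate 1 and 186 to 265 in the group labelled double knockout, but 13.2 and 0.62 on wild type replicates 2 and 3. Xist and Eif2s3y were thus above the control level together on 4 of the 6 arrays. The Y-linked Kdm5d read 144, 8.81 and 2.52 in the wild type group, against 17.5, 29.5 and 10.3 in the others. Uty, also Y-linked, read 63.7, 10.55 and 12.4 against 11.4, 11.6 and 23.4. Both were above the control on wild type replicate 1. In the group labelled double knockout only Kdm5d on replicate 2 was, so Y-linked signal there rests mainly on Eif2s3y. Whether each array holds RNA of 1 animal, as labelled, was not tested, and n counts arrays. Values without wild type replicate 1 and without wild type replicate 3 are therefore given for each changed receptor. The number of arrays, 3 in each group, limits the precision of every value.

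The regions just before the transcription start of Il2ra, Il4ra and Il7r are shown because transcripts of all of these differed between the groups. The sequences are those of RefSeq on the mouse build GRCm38.p6, 5′ to 3′ on the strand of the gene, and end before the first annotated base of each gene. Il2ra lies at chr2:11642542-11642791 on the plus strand, Il4ra at chr7:125552021-125552270 on the plus strand and Il7r at chr15:9529942-9530126 on the minus strand. Capitals mark matches to the motifs described after them.
Il2ra: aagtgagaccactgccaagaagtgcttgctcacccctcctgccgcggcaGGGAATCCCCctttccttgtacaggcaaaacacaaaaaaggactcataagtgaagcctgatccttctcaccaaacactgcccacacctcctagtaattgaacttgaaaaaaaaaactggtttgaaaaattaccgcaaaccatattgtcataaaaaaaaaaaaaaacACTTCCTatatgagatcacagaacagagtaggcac
Il4ra: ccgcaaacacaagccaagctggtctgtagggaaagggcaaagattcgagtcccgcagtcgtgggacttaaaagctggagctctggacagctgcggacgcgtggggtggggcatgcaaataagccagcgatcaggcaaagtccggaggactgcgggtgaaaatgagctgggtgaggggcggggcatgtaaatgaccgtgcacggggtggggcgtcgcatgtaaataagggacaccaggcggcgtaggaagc
Il7r: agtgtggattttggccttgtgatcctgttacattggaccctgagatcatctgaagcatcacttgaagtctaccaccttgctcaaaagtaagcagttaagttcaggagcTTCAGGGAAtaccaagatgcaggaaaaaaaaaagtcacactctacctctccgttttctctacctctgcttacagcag

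Motifs were searched on both strands in windows of 300 bases, from 250 before to 50 after a start, for 7 receptor genes in the RefSeq table and for all 32851 windows. The EGR motif GCGNGGGCG was in the window of none of the 7 genes and in 5.55% of all windows. The STAT motif TTCNNNGAA was in that of Il7r alone, as TTCAGGGAA, and in 8.3% of all windows. The ETS motif CCGGAAGT was in none of the 7 and in 3.89% of all. A further pair of motifs was chosen after the sequences were seen. The NF-kappaB consensus motif was in the window of Il2ra alone, as GGGAATCCCC, and in 1.1% of all. The ETS core AGGAAGT, which overlaps no other match here, was in those of Il2ra and Il7r and in 9.35% of all. In both genes it lies on the opposite strand and reads ACTTCCT, beginning 35 bases before the start of Il2ra and 49 before the start of Il7r used by the table. The Il7r match falls inside the annotated gene, whose extent begins upstream of the start used by the table. It is shown with its flanking bases, at chr15:9529912-9529932 on the minus strand.
Il7r: tgctcagACTTCCTgtttctg
These matches describe letters in a window and not bound sites. Il2rb is not in the table.

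Il7r, Il2rb and Il4ra were higher in the group labelled double knockout and Il2ra was lower, while Il15ra and Il21r did not pass the test and Il9r was too dim to be tested. Of the 13 receptor probe sets, 9 passed the filter on dim values, a mean of at least 4.87 on that log2 scale (an intensity of 13.2), and each of the 9 had a mean above that filter in both groups. Of these 9, 4 rose and 2 fell, where limma called 5.03% of all 27022 probe sets tested (2.91% higher and 2.11% lower). The median log2 change of the 9 was 0.21. The same 6 were those without overlap between the groups, as were 23.9% of all probe sets tested. With 1 probe set for each gene, 3 of 6 receptor genes rose and 1 fell, beside 7.47% of 13187 genes called (4.41% higher and 3.06% lower) and 26.1% of them without overlap between the groups, with a median of 0.76 for the receptor genes and -0.01 for all genes. The receptor genes were chosen with earlier results of these data known, so these shares describe them and test nothing.

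**Figure D1:**
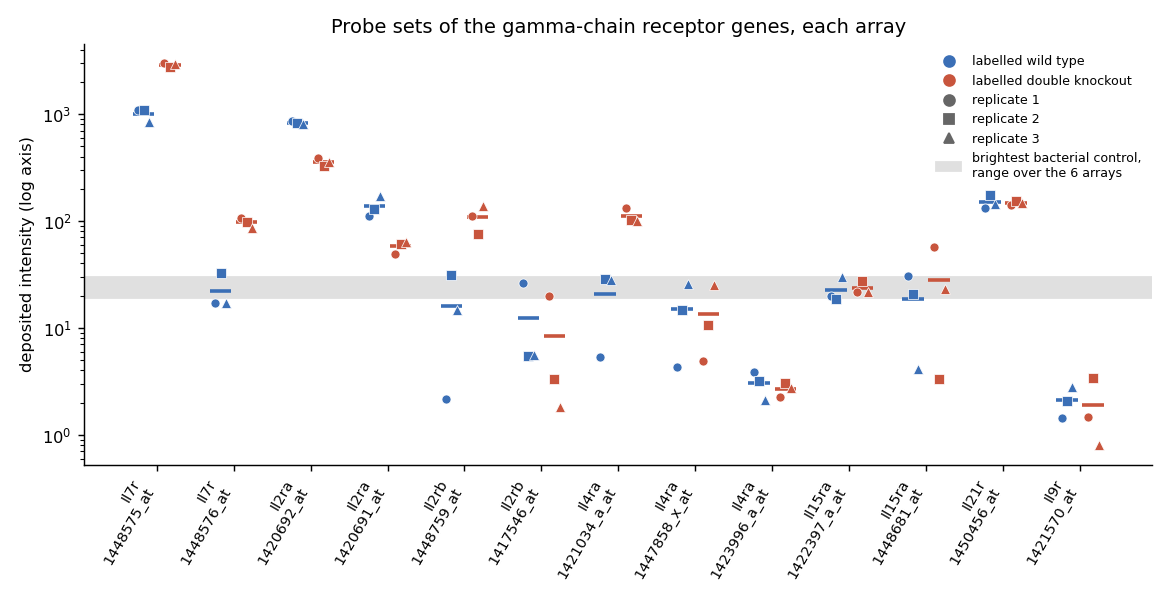
Deposited intensity (log axis) of the 13 receptor probe sets on each array, with replicates 1 to 3 as circles, squares and triangles, group means as bars and the range of the brightest bacterial control over the 6 arrays in grey. The groups stand apart for both Il7r and both Il2ra probe sets and for 1 probe set each of Il2rb and Il4ra, and the wild type points of the last 2 lie in or near the grey band.

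Il7r encodes the alpha chain of the interleukin 7 receptor, which also forms part of the receptor for thymic stromal lymphopoietin. Its brighter probe set (1448575_at) read 1091, 1079 and 843 on wild type replicates 1, 2 and 3, against 2990, 2757 and 2913 on replicates 1, 2 and 3 of the group labelled double knockout. The lowest array labelled double knockout thus lay 2.53 times above the highest wild type array. The log2 change was 1.50 (SE 0.22, limma adjusted p = 0.00273), from a mean of 1004 ± 140 to 2886 ± 119 (SD, n = 3 each), a ratio of means of 2.87. The other probe set (1448576_at) read 16.9, 32.3 and 17.2 in the wild type group, against 106, 98.6 and 86.2 in the group labelled double knockout. Only 1 of these wild type values was above the brightest control of its array, so the change of 1.57 (SE 0.26, limma adjusted p = 0.00579) understates the ratio of intensities. Both probe sets passed under all 15 other settings tried, which changed the scaling, offset, filter or model or left out 1 array, with log2 changes of the brighter between 1.37 and 1.59. That of the dimmer was 2.11 with an offset of 1 and 0.90 with an offset of 64. Without wild type replicate 1 the brighter probe set changed by 1.54 and without wild type replicate 3 by 1.37, and the dimmer by 1.45 and 1.47.

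In RNA of a bulk sample, fewer cells of a type and less RNA per cell cannot be told apart. Mature T cell markers moved with Il7r in part: of 7 named on the array, 6 were tested and 3 rose, namely Gimap6, Ms4a4b and Klf2, and none fell. The summed intensity of the 7 was 896 to 1084 in the wild type group, against 2809 to 3178 in the others. Ms4a4b gave 421 to 478 and 1432 to 1639 of it. Cd5 had a log2 change of 0.34 (SE 0.30, limma adjusted p = 0.579 over genes) and Cd6 -0.004 (SE 0.24, limma adjusted p = 0.994). Of the defining markers in that list, Ccr7 had a log2 change of 0.83 (SE 0.40, limma adjusted p = 0.275 over genes), and S1pr1 lay under the brightest control on all arrays. The part of such cells in the Il7r result was not tested.

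Il2ra encodes CD25, the private alpha chain of the interleukin 2 receptor, which binds its ligand but has no signalling domain of its own. The brighter probe set (1420692_at) read 867, 815 and 807 in the wild type group, against 389, 325 and 357 in the group labelled double knockout. All wild type arrays lay at least 2.08 times above every array labelled double knockout, and the spread within each group was small, with means of 829.8 ± 32.7 and 356.9 ± 32.1 (SD, n = 3 each). It fell by 1.20 on the log2 scale (SE 0.23, limma adjusted p = 0.0118). The dimmer probe set (1420691_at) read 112, 130 and 172 in the wild type group, against 48.7, 61.4 and 64.01 in the others, and fell by 1.06 (SE 0.25, limma adjusted p = 0.0304). Il2ra was thus lower on both of its probe sets and on all arrays labelled double knockout.

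The Il2ra change kept its size when single arrays were left out, but not always its call. Over the arrays left out in turn, the change of the brighter probe set ranged from -1.28 to -1.12. Its limma adjusted p was 0.052 without wild type replicate 2, 0.0699 without double knockout replicate 1 and 0.0565 without double knockout replicate 2, and the call held without wild type replicate 1 (a change of -1.19, adjusted p = 0.0332) or 3 (-1.23, adjusted p = 0.006). The dimmer probe set had a change of -1.20 without wild type replicate 1 and -0.92 without wild type replicate 3, and lost its call without wild type replicate 2 (limma adjusted p = 0.087) and without double knockout replicates 1, 2 and 3 (0.17, 0.091 and 0.0752). Without double knockout replicate 1 the count of all probe sets called fell from 1358 to 376. Among the double negative thymocyte markers, which CD25 accompanies, Ptcra and Dntt fell and none of 10 tested rose. The early progenitor markers Kit and Cd44 had log2 changes of 0.89 (SE 0.27, limma adjusted p = 0.0678 over genes) and 0.71 (SE 0.36, limma adjusted p = 0.295). The part of cell stage in the Il2ra result was not tested.

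Il2rb encodes CD122, the signalling chain shared by the receptors for interleukins 2 and 15, which natural killer cells and memory T cells carry. One probe set (1448759_at) read 2.16, 30.9 and 14.7 in the wild type group, against 111, 75.9 and 139 in the group labelled double knockout. All arrays labelled double knockout were above the brightest control and 1 of 3 wild type arrays was, so the gene was near or at the control level in the wild type group. The groups did not overlap, and the log2 change was 2.02 (SE 0.36, limma adjusted p = 0.00865). Its size depends on the offset, at 3.16 with an offset of 1 and 1.10 with an offset of 64. Without wild type replicate 1, the lowest array, it was 1.64 (limma adjusted p = 0.0321), and without wild type replicate 3 it was 2.04. Without double knockout replicate 1 it was 1.97 (limma adjusted p = 0.0511). The other Il2rb probe set (1417546_at) was under the filter, with values between 1.82 and 26.3 over the 6 arrays and groups that overlapped. Fitted without the filter it had a log2 change of -0.24 (SE 0.34, limma adjusted p = 0.842), so the rise of Il2rb rests on 1 probe set of 2.

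Markers of natural killer and cytotoxic cells moved with Il2rb in part. Of 12 named on the array, 9 were tested, 4 rose (Nkg7, Gzmb, Klrd1 and Tbx21) and none fell, and the summed intensity overlapped between the groups (11542 to 16435 and 14496 to 15382), carried by Gzma at 10488 to 15852. The natural killer receptor Ncr1 and the lectin receptor Klra1 lay under the brightest control on all 6 arrays. Eomes, a transcription factor of natural killer and memory cells, had a log2 change of -0.17 (SE 0.26, limma adjusted p = 0.772 over genes). Of 5 gamma-delta T cell markers named, Gpr83 and Cd163l1 rose and none fell, with sums of 827 to 1409 and 2299 to 2758. The lineage factor Sox13 read 95.6, 41.3 and 62.1 against 32.2, 35 and 12.1, lower without overlap between the groups (log2 change -0.97, SE 0.31, limma adjusted p = 0.0894 over genes), and the kinase gene Blk had -0.33 (SE 0.27). The part of these cells in the Il2rb result was not tested.

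Il4ra encodes the alpha chain of the interleukin 4 receptor, which also pairs with another chain to bind interleukin 13. Its brightest probe set (1421034_a_at) read 5.37, 28.8 and 28.1 in the wild type group, against 132, 103 and 101 in the group labelled double knockout. The lowest of the latter lay 3.50 times above the highest wild type array, and 1 of 3 wild type arrays was above its brightest control. The log2 change was 1.85 (SE 0.32, limma adjusted p = 0.00722), with 2.63 at an offset of 1 and 1.05 at an offset of 64. As for Il2rb, the lowest array was wild type replicate 1. Without it the change was 1.48 (limma adjusted p = 0.0191), without wild type replicate 3 it was 2.01, and without double knockout replicate 1 it was 1.72 (limma adjusted p = 0.0519). A pair of other Il4ra probe sets was under the filter and under the brightest control on every array. One (1447858_x_at) read 4.33 to 25.9 in the wild type group, against 4.92 to 25.1 in the others, and the other (1423996_a_at) read between 2.11 and 3.89 on all 6. Fitted without the filter they had changes of -0.08 (SE 0.35) and -0.05 (SE 0.14), and neither passed. The Il4ra result, too, rests on 1 probe set, of 3.

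B cells and myeloid cells carry the interleukin 4 receptor, and their markers were set beside Il4ra. Of 6 B cell markers tested, Cd79b alone rose and none fell. Sums over 7 named genes were 1050 to 1955 in the wild type group, against 2384 to 2773 in the others. They were carried by Cd79b at 571 to 1081 and 1782 to 1922. Its partner Cd79a had a log2 change of -0.60 (SE 0.31), Ms4a1 -0.15 (SE 0.38) and Vpreb1 0.44 (SE 0.46). The B cell factors Pax5 and Blnk had log2 changes of -0.02 (SE 0.26) and -0.17 (SE 0.33). None of 9 macrophage and dendritic cell markers passed, and their sums of 1557 to 4622 and 2728 to 3206 overlapped. None of 9 granulocyte markers passed either, but their median log2 change was 1.63. Their sums of 361 to 24834 and 18476 to 27652 overlapped, the lowest being that of wild type replicate 3. The part of these cells in the Il4ra result was not tested.

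**Figure D2:**
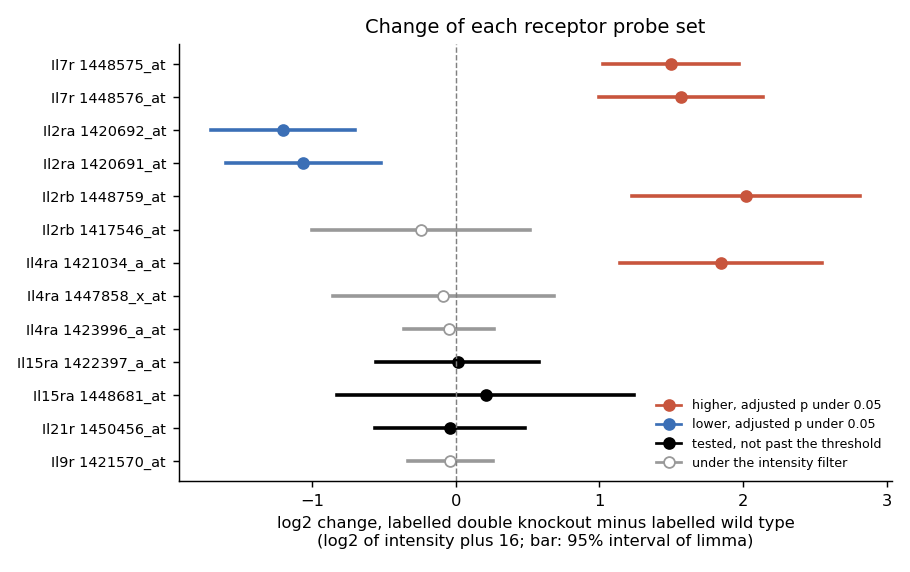
Log2 change of each receptor probe set, arrays labelled double knockout minus arrays labelled wild type, on the scale of intensity plus 16, with the 95% interval of limma. Both Il7r probe sets and 1 each of Il2rb and Il4ra lie above 0, both Il2ra probe sets lie below, and the intervals of Il15ra, Il21r, Il9r and the dim probe sets of Il2rb and Il4ra include 0.

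Il21r, the private chain of the interleukin 21 receptor, was measured well above the controls on all 6 arrays. It read 131, 177 and 145 in the wild type group, against 142, 152 and 147 in the group labelled double knockout. The groups overlapped, and the log2 change was -0.04 (SE 0.24, limma adjusted p = 0.953). The 95% interval of this change runs from -0.56 to 0.48, so changes of the size seen for Il7r or Il2ra lie outside it. In RefSeq gene order Il21r directly follows Il4ra, with 0 protein-coding genes between them, and of these neighbours Il4ra changed and Il21r did not pass the test.

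Il15ra, the private chain that binds interleukin 15 and presents it to neighbouring cells, was near the control level in both groups. Its brighter probe set (1422397_a_at) read 19.7, 18.7 and 30.1 in the wild type group, against 21.6, 27.2 and 21.5 in the others. The groups overlapped, with a log2 change of 0.02 (SE 0.26, limma adjusted p = 0.984, 95% interval -0.55 to 0.58). The other (1448681_at) ranged from 4.12 to 30.4 in the wild type group and from 3.33 to 56.7 in the group labelled double knockout, so that neither group was tight. Its change was 0.21 (SE 0.47, limma adjusted p = 0.863, 95% interval -0.82 to 1.24). Il15ra directly follows Il2ra in RefSeq gene order, again with 0 protein-coding genes between, and of this pair Il2ra fell. The difference between neighbours was not tested for either pair.

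Il9r, the interleukin 9 receptor chain, read between 0.80 and 3.42 on the 6 arrays, under the brightest control on each. It was left out of the test by the filter, and at this level no difference could be detected.

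**Figure D3:**
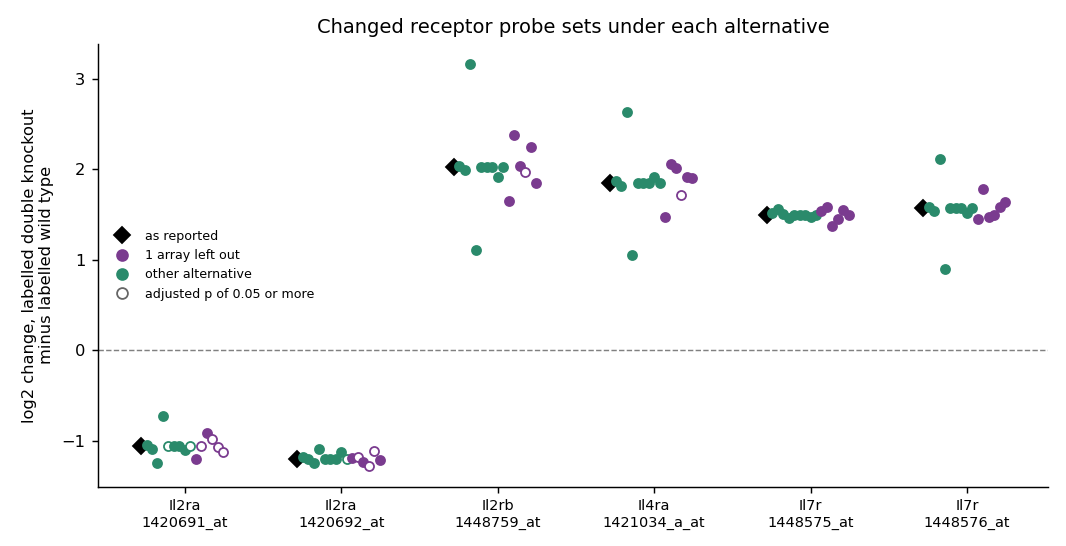
Log2 change of the 6 changed receptor probe sets as reported (diamonds), with 1 array left out (purple) and under the other alternatives (green), open where the adjusted p is 0.05 or more. Il7r keeps its call throughout, the far points of Il2rb and Il4ra are the offsets of 1 and 64, and the open points gather at Il2ra.

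Genes of the pathway were counted by lists, beside the 7.47% of all genes tested that were called (4.41% higher and 3.06% lower). The ligands were at or near the level of the controls. All 6 interleukin genes are named on the array and 2 passed the filter, Il4 and Il7, neither of which passed the test. Of these 2, Il4 had the smaller p, with a log2 change of 0.41 (SE 0.34, limma adjusted p = 0.557 over genes), and read between 2.42 and 33.7. Il2, Il7, Il15 and Il21 lay under the brightest control on all 6 arrays. Il9, under the filter, read 36.1, 3.01 and 23.2 against 2.66, 1.99 and 2.77, lower without overlap between the groups. Fitted without the filter it had a log2 change of -0.89 (SE 0.32, limma adjusted p = 0.23 over probe sets). Il2, also under the filter, read 10.1, 7.78 and 20.99 against 1.15, 9.25 and 1.61, with overlap between the groups. In the same fit Il2 had -0.55 (SE 0.24, limma adjusted p = 0.355).

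Among the 15 kinases, STAT genes and adaptors tested, 1 rose and none fell, a share no higher than that of all genes (median log2 change 0.25). Gab2, a docking adaptor downstream of cytokine receptors, read 56.6, 89.8 and 55.0 in the wild type group, against 229, 284 and 142 in the group labelled double knockout. Its log2 change was 1.45 (SE 0.30, limma adjusted p = 0.013 over genes), but dimmer probe sets gave -0.45 and -0.54, and the call was lost without wild type replicate 1 and without double knockout replicates 1 and 2. With the mean of its tested probe sets the change of Gab2 was 0.15 (limma adjusted p = 0.793). Jak1, the kinase of the partner chains, had a log2 change of 0.78 (SE 0.38, limma adjusted p = 0.269 over genes) on its brightest probe set. Jak3, the kinase of the gamma chain, had -0.34 (SE 0.26), Stat5a -0.58 (SE 0.27) and Stat5b 0.35 (SE 0.25), and none of these passed. These 4 genes fall outside the rule for named genes and were chosen, for their place in the pathway, after their values were seen. A dimmer Jak1 probe set rose, from 112, 191 and 145 to 326, 419 and 272, by 1.09 (SE 0.28, limma adjusted p = 0.0456 over probe sets).

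Of 14 inhibitors of the pathway, 2 rose and none fell (median 0.04). Cish, which STAT5 induces and which binds activated receptors, read 285, 263 and 291 in the wild type group, against 580, 452 and 691 in the group labelled double knockout (log2 change 0.96, SE 0.25, limma adjusted p = 0.0391 over genes). Socs1, an inhibitor of the JAK kinases, read 23.6, 14.5 and 36.4 against 68.4, 50.3 and 77.1 (1.00, SE 0.27, limma adjusted p = 0.049). The groups did not overlap for either gene. Cish lost its call without wild type replicate 1 or 2 and without double knockout replicate 1 or 3 (adjusted p up to 0.201), and Socs1 passed in 6 of 16 alternatives, of which 1 left out an array (adjusted p up to 0.197).

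Of 18 genes of the STAT5 and gamma-chain response, 4 rose and 1 fell (median 0.26), Cish and Socs1 among them. Bcl2, the survival protein that interleukin 7 maintains, read 320, 291 and 333 in the wild type group, against 784, 901 and 579 in the others (1.18, SE 0.25, limma adjusted p = 0.0136 over genes). Of its other 4 probe sets 1 rose (1.95, SE 0.41) and 3 did not pass, with changes between 0.03 and 0.56. Bcl2 lost its call without wild type replicate 2 and without double knockout replicates 1 and 2 (adjusted p up to 0.111). Gzmb, a granzyme, rose from between 45.6 and 47.7 to between 145 and 168 (1.45, SE 0.22, limma adjusted p = 0.00272). Myc, the growth regulator, went the other way, from 1100, 1121 and 808 to 278, 230 and 299, and fell by 1.86 (SE 0.25, limma adjusted p = 0.00114). Myc and Gzmb passed under all 16 alternatives. This list thus held members that moved in opposite directions, as the receptors themselves did.

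Of 16 transcription factors known to act on the receptor genes, 1 rose and 1 fell (median 0.33). Tbx21, T-bet, which acts on Il2rb, read 64.3, 59.9 and 62.4 against 137, 128 and 113 (0.84, SE 0.23, limma adjusted p = 0.0451 over genes), and passed in 6 of 16 alternatives (adjusted p up to 0.222), of which 1 left out an array. Runx1 read 2000, 1510 and 755 against 548, 450 and 492 (-1.40, SE 0.33, limma adjusted p = 0.0253). Of its other 5 probe sets 1 fell (-1.40, SE 0.35, limma adjusted p = 0.0396 over probe sets) and 4 did not pass, with changes between -0.64 and 0.13, and the call was lost when any 1 array but wild type replicate 3 was left out (adjusted p up to 0.114). With the mean of the tested probe sets the change of Runx1 was -0.63 and did not pass. Foxo1, outside the rule for named genes and chosen after its values were seen, did not pass at gene level (0.40, SE 0.27, limma adjusted p = 0.443). A dimmer Foxo1 probe set rose, from 42.6, 45.4 and 35.1 to 129, 139 and 117. Its change was 1.32 (SE 0.23, limma adjusted p = 0.0073 over probe sets), and another tested probe set gave 0.17 (SE 0.25). Among 17 tested chains of other cytokine receptors, 3 rose and none fell (median 0.10). Crlf2, the chain that joins Il7r to form the receptor for thymic stromal lymphopoietin, read 837, 721 and 647 against 1561, 1542 and 1510 (1.04, SE 0.22, limma adjusted p = 0.015 over genes), so that both chains of that receptor were higher. It lost its call without any 1 of the arrays labelled double knockout (adjusted p up to 0.121). Ifngr1, a chain of the interferon gamma receptor, rose by 1.11 (SE 0.25, limma adjusted p = 0.0205 over genes) and lost its call without wild type replicate 1 or 2 or double knockout replicate 1 or 2 (adjusted p up to 0.146). Il10rb rose by 1.06 (SE 0.28, limma adjusted p = 0.0429 over genes) and lost its call when any 1 array but wild type replicate 2 was left out (adjusted p up to 0.196).

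**Figure D4:**
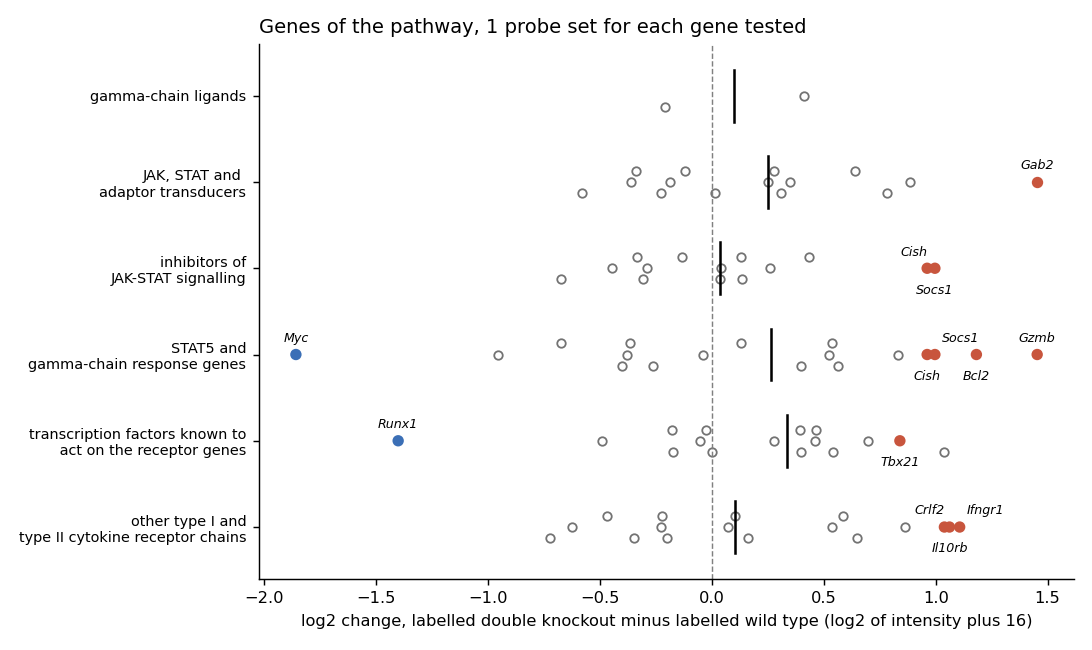
Log2 change, arrays labelled double knockout minus arrays labelled wild type, of the genes tested in each of 6 pathway lists, with changed genes filled and named and the list's median as a black bar. Cish and Socs1 are in 2 lists, and the medians lie between 0.04 and 0.33.

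Over the 6 lists without the receptors themselves, 11 of 78 genes tested changed, 9 higher and 2 lower. Of all genes tested 7.47% were called, 4.41% higher and 3.06% lower. The lists, too, were chosen with earlier results of these data known, so this count is a description and no test. The list count ranged from 2 to 14 as arrays were left out, lowest without double knockout replicate 1. Over all genes the count called ranged from 292 to 1855 under the same omissions, and was lowest and highest without the same arrays as that of the lists. The list count was 4 without wild type replicate 1 or double knockout replicate 2, 5 without double knockout replicate 3 and 7 without wild type replicate 2.

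The genes most like each changed receptor were taken as those with the smallest Euclidean distance over the 6 arrays, on log2 values centred on the gene's mean. Since the contrast between the groups dominates this distance, nearness mainly reflects a change of similar size. A shared order of arrays, or a shared lowest array, also follows in part from this choice. Nearest to Il7r were Birc3, an inhibitor of apoptosis (distance 0.19), Cytip, which binds cytohesin (0.23), and the phosphodiesterase gene Pde2a (0.26). Birc3 read 217, 215 and 149 in the wild type group, against 614, 602 and 647 in the others, and like Il7r it was lowest on wild type replicate 3. Nearest to Il2ra were Marcksl1 (0.24), the DNA repair endonuclease gene Apex1 (0.24) and Fam174c (0.26). Apex1 read 9412, 7496 and 8450 against 3943, 3482 and 4151, a fall of 1.14 (SE 0.18).

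Il2rb and Il4ra had less close neighbours. Glul, glutamine synthetase, was at 0.51 from Il2rb, Plcxd1 at 0.69 and Tes, testin, at 0.70. Glul read 852, 1493 and 1056 in the wild type group, against 4382, 3567 and 4766 in the others, with the same order of arrays within each group as Il2rb. The genes nearest to Il4ra were the ceramide kinase gene Cerk (0.38), the transcription factor gene Klf9 (0.43) and the kinase gene Matk (0.43), and all 3 were, like Il4ra, lowest on wild type replicate 1.

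**Figure D5:**
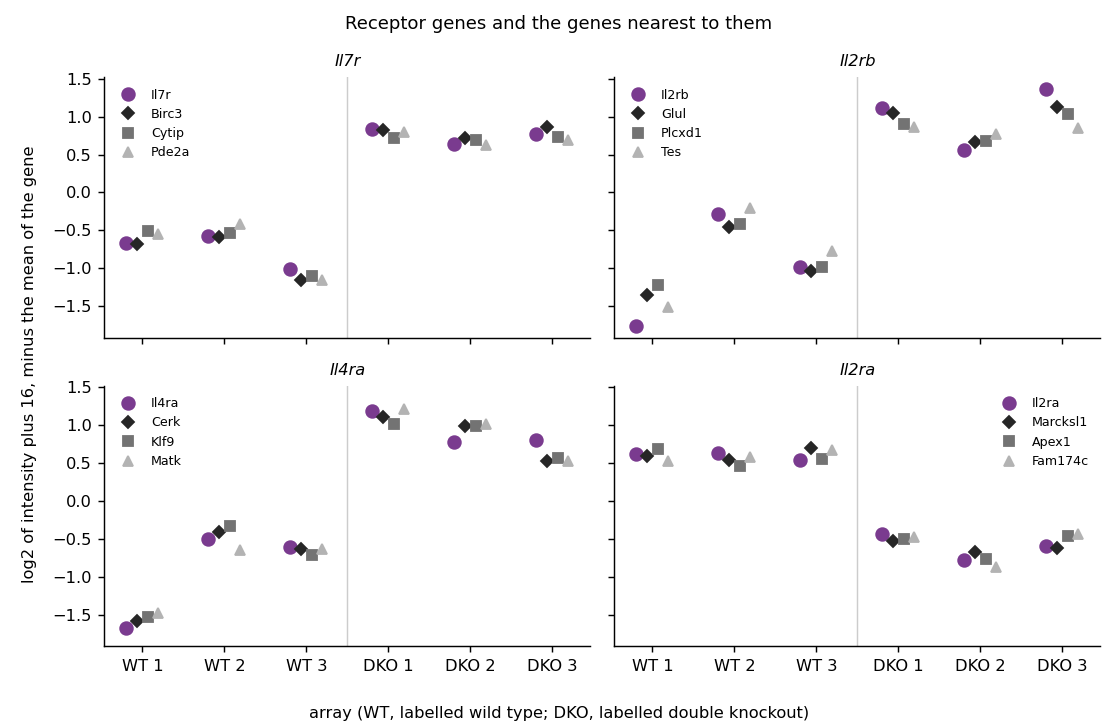
Log2 of intensity plus 16, centred on each gene's mean, on the 6 arrays for the 4 changed receptor genes (large circles) and the 3 genes nearest to each. The arrays labelled wild type (WT) and double knockout (DKO) stand apart for all genes shown, and wild type replicate 1 is the lowest array for Il2rb, Il4ra and their neighbours. The neighbours were picked on these same values.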

How the data were processed

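Per the labels, RNA of double negative thymocytes from 3 wild type and 3 Egr1/Egr3 double knockout mice was read on 6 single-colour arrays. The sample titles instead name whole thymus, and give the mRNA as amplified. The authors deposited linear intensities, 1 for each of 45101 probe sets and array. The mean of the middle 96% of values is 150.0 on every array, which shows a scaling of every array to one trimmed mean. How the scans were summarised into probe sets is not stated in the labels.

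From these values, 64 control probe sets were left out. An offset of 16 was added, log2 was taken, and each array was centred on its median, because the medians spanned 0.13. Probe sets with a mean under the 40th percentile (4.87) were left out, and 27022 entered a two-sided test in limma 3.58.1 (R 4.3.3), by lmFit and eBayes with an intensity trend. P-values were adjusted by the Benjamini-Hochberg method over all probe sets tested, at a threshold of 0.05. For lists, the probe set of highest mean stood for each gene, among probe sets with 1 symbol, and p-values were adjusted over 13187 genes. Genes were named through the platform annotation, with symbols updated through RefSeq (34741 of 34945 matched). SE is the moderated standard error.

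The receptor genes and gene lists were chosen with earlier results of these data known. The genes named in the text are all the receptor genes, Egr1 and Egr3, up to 4 changed genes of smallest p in each list (or the 1 of smallest p where none passed), and the 3 genes nearest to each changed receptor gene, clone identifiers skipped. Markers that did not pass were named for their defining role, after their values were seen. Alternatives were no centring, quantile normalization, another offset (1 or 64), another filter (none, or the 60th percentile), a flat prior variance, weights for arrays, a block for the replicate number, omission of each array in turn, and, for genes, the mean of all tested probe sets. On simulated data with 200 changed probe sets the fit returned the size of the changes put in. It called 73.5% of those with a log2 change of 2, with 5 false calls, and none of those with a log2 change of 1. The simulation changed fewer probe sets than were called in the data, where changes near 1 were called. Its shares therefore do not carry over to these data. Arrays were not treated as paired across groups by replicate number. Deviations from the group means correlated at -0.05, -0.13 and -0.29 between arrays of the same number, and from -0.19 to 0.25 between unlike numbers. With so few arrays the deviations within a group are tied to one another, so these values cannot settle whether arrays were paired.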

Additional observations from a re-analysis of the deposited data

How the results depend on the processing

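At the level of genes, Il7r, Il2rb and Il4ra kept direction and call under all 16 alternatives. Il2ra kept its direction under all 16 and its call under 14, and lost it with the replicate block (limma adjusted p = 0.0625) and without double knockout replicate 1 (0.0559). It is not known whether arrays are paired by the replicate numbers. With them as a block in the fit, the brighter Il2ra probe set kept its change of -1.20 (adjusted p = 0.0769) and the dimmer its change of -1.06 (0.0865), 573 probe sets and 426 genes were called, and 3 pathway genes. With array weights 3417 probe sets and 2103 genes were called. With no filter the dimmer Il2ra probe set, at -1.06, had an adjusted p of 0.0663. With an offset of 1, 7 pathway genes were called. As arrays were left out in turn, called receptor probe sets numbered 2 to 6, with 2 without double knockout replicate 1, called receptor genes 3 to 4, all called probe sets 376 to 2744, all called genes 292 to 1855, and called pathway genes 2 to 14. The ranges of log2 changes were -1.20 to -0.92 and -1.28 to -1.12 for Il2ra, 1.64 to 2.38 for Il2rb, 1.48 to 2.06 for Il4ra, and 1.37 to 1.59 and 1.45 to 1.78 for Il7r. The changes near 0 turned sign: Il15ra ranged from -0.061 to 0.14 and from -0.28 to 0.72, and Il21r from -0.15 to 0.10. The cause of these moves was not tested. Probe sets near the bacterial controls (Il9r, Il15ra, and the wild type values of Il2rb and Il4ra) give no reliable size of change.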
